A study of Mus musculus with 6 samples.

Results

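The POU class III and OTX transcription factors were followed in mouse embryonic stem cells (ESCs) on the way to neural fate. The members are Pou3f1, Pou3f2, Pou3f3, Pou3f4, Otx1 and Otx2, chosen by name as the probe sets whose only annotated symbol is one of them. Each of the 6 genes had 1 probe set, out of 34351 probe sets and 22180 named genes. The cells carried, by lentiviral infection, a short hairpin RNA (shRNA) that targets Chd4 or Mbd3 or serves as control. CHD4 is the remodeling ATPase of the NuRD chromatin complex, and MBD3 is another of its subunits. The 6 groups were Chd4-knockdown, Mbd3-knockdown and control cells after 4 days of neural differentiation (day 4), and the same 3 lines as stem cells in medium with serum and leukemia inhibitory factor (day 0). For differentiation the cells were re-aggregated in low-adhesion plates in medium with serum replacement, and every group, control included, carried a lentiviral shRNA.

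POU class III proteins bind octamer-like DNA through a POU-specific domain and a homeodomain, often beside a SOX protein. Pou3f1 (Oct6) marks the epiblast and promotes the first step into neural fate, and Pou3f2 (Brn2), Pou3f3 (Brn1) and Pou3f4 (Brn4) act in neural progenitors and neurons. Otx2, a homeobox factor of the paired type, helps ESCs leave the naive state and later specifies forebrain and midbrain. Its relative Otx1 acts in the developing forebrain and sense organs.

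The label check came first. In its own knockdown line, Chd4 had 71.3% of the control intensity at day 4 and 29.8% at day 0. Mbd3 had 75.5% at day 4 and 43.0% at day 0 in its line. Array medians ran from 39.6 to 41.4. All 4 core pluripotency markers lay above 41.4 on every array, with a summed intensity of 2976 to 3970 at day 4 and 4872 to 5234 at day 0. The 4 neural markers summed to 396 in the Chd4 knockdown, 648 in the Mbd3 knockdown and 3042 in control at day 4, and to between 192 and 241 at day 0. Summed markers of endoderm (4 genes, 179 to 233) and mesoderm (3 genes, 130 to 153) varied within these ranges over the arrays. Single genes moved inside the endoderm sum. Gata6 had 64.4 in the Chd4 knockdown, 29.9 in the Mbd3 knockdown and 29.0 in control at day 4, and Foxa2 had 66.3, 83.8 and 116. Summed trophectoderm markers (3 genes) ran from 134 to 158 at day 4 and from 203 to 270 at day 0. Those of non-neural ectoderm (3 genes) ran from 136 to 172 at day 4 and from 194 to 275 at day 0. Most of the trophectoderm range lay in Krt18, with 70.3 to 90.5 at day 4 and 127 to 197 at day 0. For non-neural ectoderm it lay in Krt8, with 73.6 to 115 at day 4 and 136 to 214 at day 0. Elf5, Krt14 and Tfap2a lay under 41.4 on every array, and Cdx2 between 36.2 and 48.5. In these bulk samples fewer cells of a type and less RNA per cell cannot be told apart.

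Each group holds 1 array, so no difference given here has a replicate check or a test, and nothing in the labels tells a single culture from a pool. "Higher" and "lower" describe these arrays. Intensities are linear, differences are of log2 intensity, and a gene past 2-fold has a log2 difference of at least 1 in either direction. No detection call was used. Where the dimmer value lies under 41.4, the highest array median, the fold is given against 41.4 as "at least". Levels are compared between arrays for 1 gene, never between genes.

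Pou3f2, Pou3f3 and Pou3f4 shared 1 pattern over the arrays and are shown first, with the 250 bases before each start site (RefSeq, GRCm38.p6). They are shown because these 3 genes lie on 3 chromosomes and were high on the same array. Capitals mark CCAAT, or ATTGG on the other strand, the box bound by the general factor NF-Y.
Pou3f2, chr4:22488367-22488616, minus strand: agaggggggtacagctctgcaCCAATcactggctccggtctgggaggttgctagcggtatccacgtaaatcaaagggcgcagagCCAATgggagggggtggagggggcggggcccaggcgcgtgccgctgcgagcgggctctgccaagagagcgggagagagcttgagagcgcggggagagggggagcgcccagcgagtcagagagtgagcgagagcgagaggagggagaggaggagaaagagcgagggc
Pou3f3, chr1:42695518-42695767, plus strand: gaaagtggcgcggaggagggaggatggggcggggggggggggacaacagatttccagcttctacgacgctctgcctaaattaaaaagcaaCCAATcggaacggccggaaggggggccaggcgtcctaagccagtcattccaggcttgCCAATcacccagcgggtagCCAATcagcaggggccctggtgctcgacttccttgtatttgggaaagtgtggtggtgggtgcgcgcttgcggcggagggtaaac
Pou3f4, chrX:110814129-110814378, plus strand: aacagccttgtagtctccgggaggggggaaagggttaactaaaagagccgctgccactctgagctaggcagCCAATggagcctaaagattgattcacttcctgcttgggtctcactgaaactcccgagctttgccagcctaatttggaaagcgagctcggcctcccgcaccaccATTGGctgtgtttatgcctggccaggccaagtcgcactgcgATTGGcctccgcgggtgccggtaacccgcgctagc

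The box occurs 2 times in the Pou3f2 window and 3 times in each of the Pou3f3 and Pou3f4 windows. Of 32851 such windows in the table, 33.8% hold it at least once and 2.79% at least 3 times. The motifs were chosen after the sequences were seen. None of the 3 windows holds the octamer ATGCAAAT (1.60% of windows), the SOX core ACAAAG (16.5%), the site TAATCC bound by OTX-type homeodomains (6.25%) or TATAAA (12.4%), on either strand. The windows hold 18 CG pairs for Pou3f2, 15 for Pou3f3 and 13 for Pou3f4, above the median of 6 over all windows. Windows with fewer CG pairs made up 78.3%, 72.7% and 68.5% of all in the same order, so such counts are common. A match is a description of letters, not of a bound site. Of the other members, Otx2 has 4 windows in the table, for 4 start sites, with 1 CCAAT box in 1 of them, TAATCC once in another and TATAAA once in 1 more.

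Pou3f2, which works with proneural factors in neural progenitors, had an intensity of 35.0 in the Chd4 knockdown, 39.9 in the Mbd3 knockdown and 253 in control at day 4, and 27.0, 34.7 and 33.1 in the same lines at day 0. The control array of day 4 stood alone, at least 6.11-fold above each of the others. All 5 other values lay under 41.4, so their order is not interpretable. The measured day 4 differences in log2 intensity from control were -2.86 (Chd4 knockdown) and -2.67 (Mbd3 knockdown). Against 41.4 both are bounded at -2.61, so Pou3f2 was at least 6.11-fold lower in each.

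Pou3f3, a close relative expressed in cortex and kidney, had 36.3 in the Chd4 knockdown, 46.9 in the Mbd3 knockdown and 247 in control at day 4, and 42.8, 36.7 and 42.8 at day 0. Again only the day 4 control array was high. Pou3f3 was at least 5.96-fold lower than control in the Chd4 knockdown and 5.26-fold lower in the Mbd3 knockdown at day 4, with measured log2 differences of -2.77 and -2.40.

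Pou3f4, a factor of the neural tube and inner ear encoded on the X chromosome, had 36.4 in the Chd4 knockdown, 45.3 in the Mbd3 knockdown and 298 in control at day 4, and 41.2, 32.2 and 38.6 at day 0. Its high array was again the day 4 control. The Chd4 knockdown was at least 7.20-fold and the Mbd3 knockdown 6.59-fold below control, with measured log2 differences of -3.03 and -2.72. Since several of the dim values lie under 41.4, no order of size is given among the 3 genes.

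**Figure D1:**
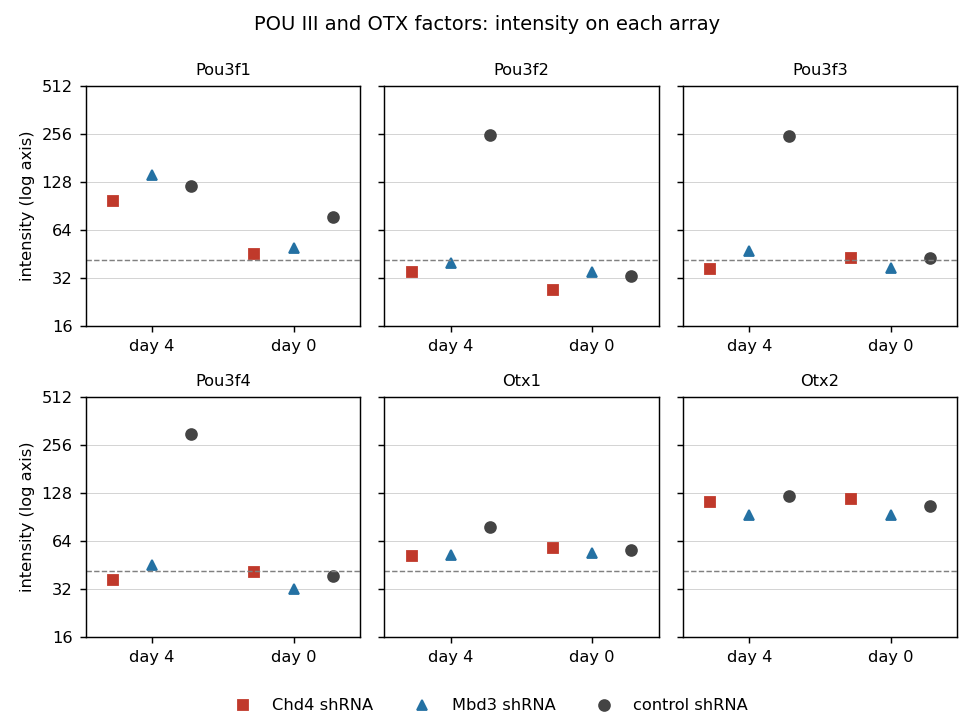
Intensity of each member on the 6 arrays (log axis), with Chd4 shRNA, Mbd3 shRNA and control shRNA from left to right at day 4 and then at day 0; each point is 1 array and the dashed line is the highest array median, 41.4. For Pou3f2, Pou3f3 and Pou3f4 the day 4 control array lies between 247 and 298 and the other arrays between 27.0 and 46.9, while Otx2 stays between 92.7 and 122 on all arrays.

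In all, 3 of 6 members were at least 2-fold lower than control at day 4 in the Chd4 knockdown, where 6.65% of all genes compared were, and 3 of 6 in the Mbd3 knockdown, where 4.90% were. No member was at least 2-fold higher, against 5.07% and 3.44% of genes. The 3 lower genes were Pou3f2, Pou3f3 and Pou3f4 in both, and all 6 members entered both comparisons. The members' median log2 differences were -1.68 (Chd4) and -1.49 (Mbd3), beside -0.04 and -0.06 over all genes. Both comparisons rest on the same day 4 control array, so they are not independent of each other. Neural marker sums, given above, and those of 3 neuron markers (438 in the Chd4 knockdown, 559 in the Mbd3 knockdown and 1202 in control) moved with these genes at day 4, and their part in the result was not tested. With 16 subtracted from each intensity, which removes a possible added constant, the measured Chd4 differences of Pou3f2, Pou3f3 and Pou3f4 were -3.64, -3.51 and -3.79. They rest on knockdown values under 41.4, so no size beyond the bounds above is read from them.

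Pou3f1, the member tied to the epiblast and to neural commitment, took a different course. It had 97.3 in the Chd4 knockdown, 141 in the Mbd3 knockdown and 120 in control at day 4, and 45.4, 49.6 and 76.9 at day 0. From high to low the arrays ran Mbd3 knockdown, control and Chd4 knockdown at day 4, then control, Mbd3 knockdown and Chd4 knockdown at day 0, so every day 4 array lay above every day 0 array. With 1 array a group the spread that would separate neighbours in this order is unknown. The day 4 log2 differences from control, -0.30 (Chd4 knockdown) and 0.23 (Mbd3 knockdown), were under 2-fold.

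At day 0, no member passed 2-fold in either knockdown, where 1.26% (Chd4) and 0.680% (Mbd3) of genes compared did in either direction. Pou3f2 and Pou3f4 did not enter these comparisons, because their brighter array was under its median. Pou3f1 was nearest to the threshold, with log2 differences of -0.76 (Chd4) and -0.63 (Mbd3), the 211th lowest of 13445 and the 216th lowest of 13388 genes. Both use the same day 0 control array. With 16 subtracted from each intensity the Chd4 value was -1.05, past 2-fold.

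**Figure D2:**
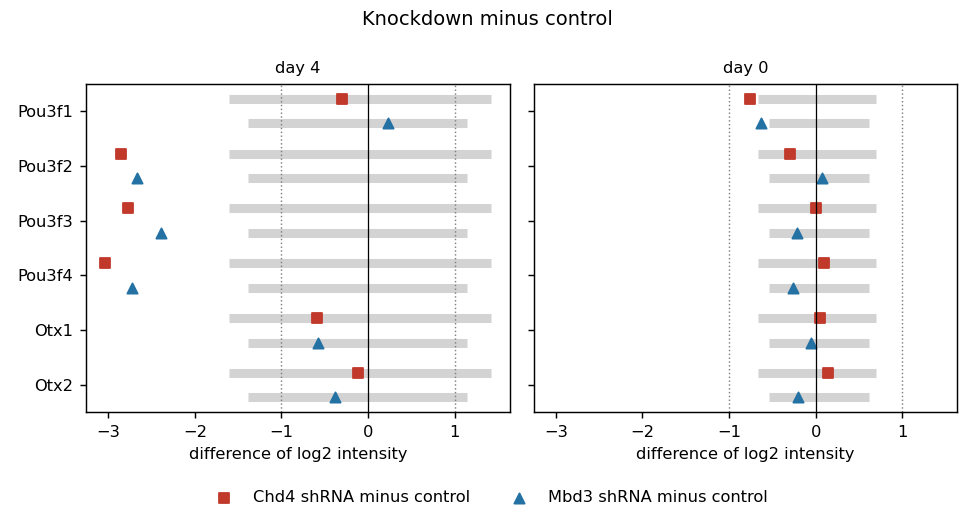
Difference of log2 intensity between each knockdown and control at day 4 (left) and day 0 (right); each point is 1 member, grey bars span the 2.5th to the 97.5th percentile of all genes compared and dotted lines mark 2-fold. At day 4 Pou3f2, Pou3f3 and Pou3f4 lie between -3.03 and -2.40 as measured, outside the grey bars, and at day 0 Pou3f1 lies just below them at -0.76 and -0.63.

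The day effect was then taken within each line, so that the 3 lines share no array, although the control value uses the same day 4 array as the knockdown comparisons. In the Chd4 knockdown 1 of the 4 members that entered was at least 2-fold higher at day 4 than at day 0, where 1.70% of genes were, and 0 were lower (1.16% of genes). In the Mbd3 knockdown it was 1 of 5, where 1.60% of genes were higher and 1.11% lower. That member was Pou3f1 in both lines. In control, 3 of 6 members were at least 2-fold higher, where 8.13% of genes were, and 0 lower (4.70% of genes). Those 3 were Pou3f2, Pou3f3 and Pou3f4.

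Pou3f1 was higher at day 4 by 1.10 in the Chd4 knockdown, 1.51 in the Mbd3 knockdown and 0.64 in control on the log2 scale. It ranked 180th from the highest of 13407 genes in the Chd4 knockdown and 57th of 13348 in the Mbd3 knockdown, but 2154th of 13830 in control. The difference of the knockdown lines from control in this day effect, 0.46 and 0.87, was not tested, since there is 1 array a group. Pou3f1 started lower at day 0 in both knockdown lines and ended on both sides of control.

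In control, Pou3f2 was at least 6.11-fold, Pou3f3 5.76-fold and Pou3f4 at least 7.20-fold higher at day 4, with measured log2 differences of 2.93, 2.53 and 2.95. In the knockdown lines no direction between the days is given for them, because in each pair of arrays at least 1 value lay under 41.4.

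**Figure D3:**
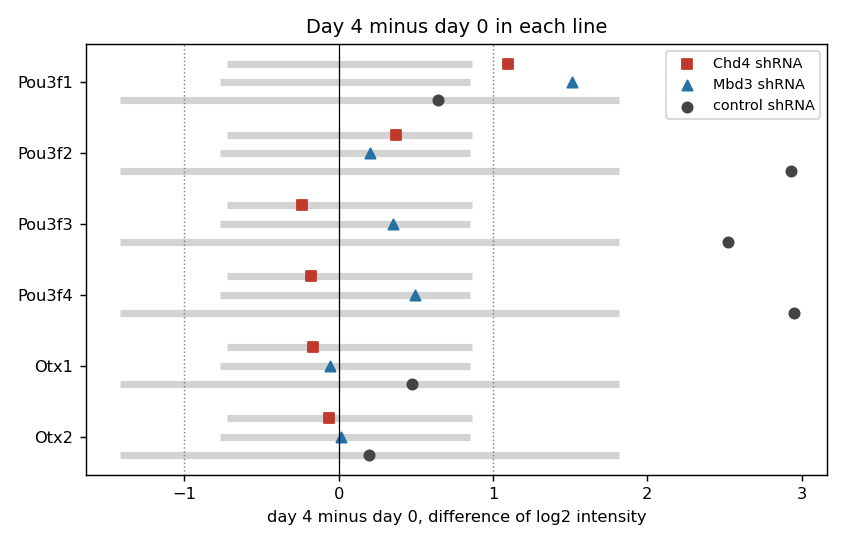
Day 4 minus day 0 in log2 intensity for each member in the Chd4 shRNA, Mbd3 shRNA and control shRNA lines; grey bars span the 2.5th to the 97.5th percentile of all genes compared in that line and dotted lines mark 2-fold. Pou3f1 has its larger differences in the knockdown lines (1.10 and 1.51), and Pou3f2, Pou3f3 and Pou3f4 have theirs in control (2.53 to 2.95, as measured).

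The OTX genes varied little. Otx2 had 113 in the Chd4 knockdown, 93.8 in the Mbd3 knockdown and 122 in control at day 4, and 118, 92.7 and 107 at day 0. Its highest and lowest arrays were 1.32-fold apart, and both Mbd3-knockdown arrays were the lowest. The day 4 log2 differences from control were -0.11 (Chd4) and -0.38 (Mbd3), and the day difference in control was 0.19.

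Otx1 had 51.7 in the Chd4 knockdown, 52.1 in the Mbd3 knockdown and 78.1 in control at day 4, and 58.0, 54.1 and 56.1 at day 0. As for the 3 neural POU genes, the day 4 control array was the highest, here by 1.35-fold over the next. The day 4 differences from control were -0.59 and -0.58, under 2-fold, ranked 2082nd of 13734 and 1801st of 13588 from the lowest.

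Set against each other, the Chd4 and Mbd3 knockdowns had no member past 2-fold at day 4, where 1.10% of genes were in either direction, nor at day 0, where 1.05% were. The farthest was Pou3f1 at day 4, lower in the Chd4 than in the Mbd3 knockdown by a log2 difference of -0.54, the 297th lowest of 13329 genes. Pou3f3 and Pou3f4 were at -0.37 and -0.31, with the Chd4-knockdown value under 41.4. Otx2 was 0.27 higher at day 4 and 0.35 higher at day 0 in the Chd4 than in the Mbd3 knockdown.

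The genes next to the members on the chromosome, by the RefSeq gene order of GRCm38.p6, were read on the same arrays. Both measured neighbours of Pou3f3, Pantr1 at 943 bases and 2900092D14Rik at 126 bases, are noncoding and had its pattern. Pantr1 had 30.5 in the Chd4 knockdown, 33.1 in the Mbd3 knockdown and 167 in control at day 4, and 36.0, 30.0 and 41.9 at day 0. 2900092D14Rik had 24.6, 29.5 and 362 at day 4 and 22.8, 25.4 and 23.9 at day 0. Both were thus high on the day 4 control array and at or near the dim end elsewhere. Their day 4 log2 differences from control were -2.45 and -2.34 for Pantr1, and -3.88 and -3.62 for 2900092D14Rik, in the Chd4 and Mbd3 knockdowns. The day 4 knockdown values lie under 41.4, so the folds are at least 4.03 for Pantr1 and at least 8.74 for 2900092D14Rik.

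The measured neighbours of Pou3f1, Pou3f2 and Pou3f4 had no difference past 2-fold, but most were dim. Gm42262 beside Pou3f2 (25.7 to 28.6) lay under the highest array median on all arrays. So did Gm7134 (33.6 to 40.9) and Cylc1, both beside Pou3f4. 4933407E24Rik beside Pou3f1 ran from 34.6 to 46.1. A fall in these genes could not be seen, so no absence of change is read from them. Only Fbxl4 and Utp11 lay above that median on every array. Fbxl4, 48004 bases from Pou3f2, had 61.9 in the Chd4 knockdown, 65.9 in the Mbd3 knockdown and 60.2 in control at day 4. Cylc1, 291310 bases from Pou3f4, stayed between 18.5 and 18.7 on all arrays. That is close to the lowest value of 17.4, where a lower level could not be seen. Utp11, 17577 bases from Pou3f1, stayed between 356 and 425. Wdpcp, 96077 bases from Otx1, had 42.1, 43.2 and 77.6 at day 4 and 42.6, 41.7 and 38.0 at day 0. It was again highest on the day 4 control array. Ehbp1, the nearer neighbour of Otx1 at 4174 bases, had 65.8, 61.1 and 66.7 at day 4 and 58.7, 69.5 and 59.4 at day 0. It did not share that pattern, and its highest array was the day 0 Mbd3 knockdown. Tmem260, 96598 bases from Otx2, had 47.2, 46.3 and 60.9 at day 4 and 53.7, 55.5 and 51.5 at day 0. The noncoding Otx2os1, beside Otx2, was higher in the knockdowns at day 4, by less than 2-fold, with 54.2 (Chd4 knockdown), 69.3 (Mbd3 knockdown) and 39.4 (control). RefSeq also places the noncoding Gm46091 over Pou3f3 and Gm32517 over Otx1. Neither is named by a probe set of its own, so their part in these values was not tested.

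**Figure D4:**
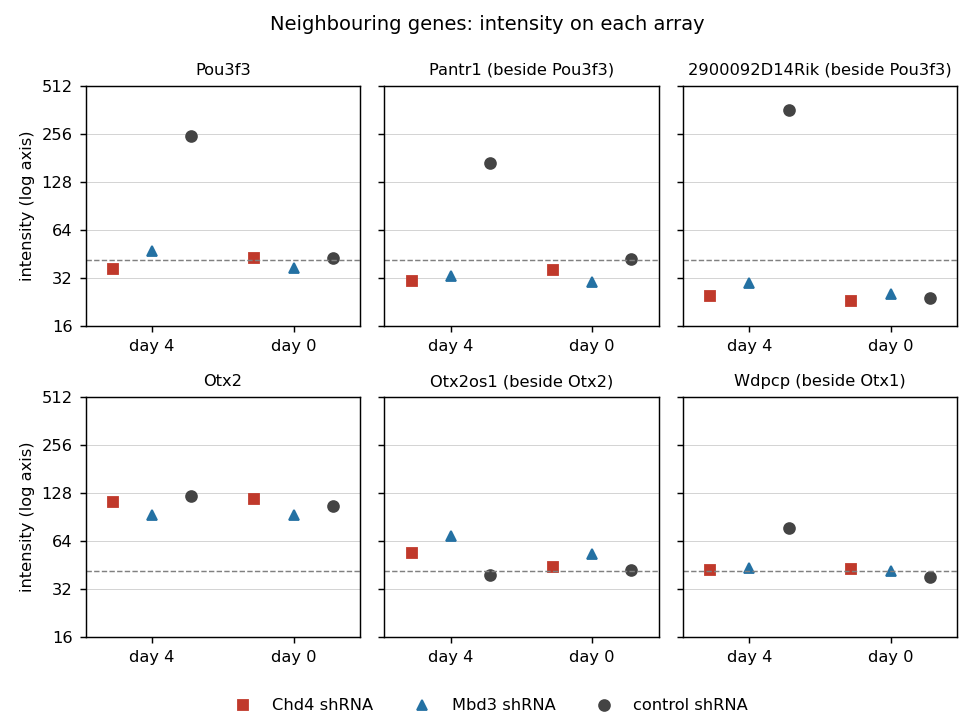
Intensity on the 6 arrays (log axis) of Pou3f3 and Otx2 and of genes next to Pou3f3, Otx2 and Otx1; each point is 1 array, with Chd4 shRNA, Mbd3 shRNA and control shRNA from left to right at each day, and the dashed line is at 41.4. Pantr1 and 2900092D14Rik are high on the day 4 control array only (167 and 362), as is Pou3f3 (247), while Otx2os1 is lowest there (39.4).

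Genes known to act with these factors were read from lists, against the shares of all genes given above. The lists were chosen with earlier results of these data known. Of the SOX partners, 4 of 5 were at least 2-fold lower than control at day 4 in both knockdowns, with list medians of -1.97 and -1.52. Sox1, a neural plate factor, had 159 in the Chd4 knockdown, 360 in the Mbd3 knockdown and 1033 in control at day 4, and Sox11, a POU partner in neural progenitors, had 54.4, 69.6 and 218. Sox2, the partner shared with stem cells, had 1131, 1316 and 1416. Between the days, 2 of 5 SOX genes were at least 2-fold higher at day 4 in each knockdown line and 4 of 5 in control. The 2 in each knockdown line were Sox1 and Sox4. Pou3f2 did not enter the day comparison in these lines, where all its values lay under 41.4, so it is not set against them.

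Of 9 measured neural genes linked to POU III factors, 6 were at least 2-fold lower and 0 higher than control at day 4 in each knockdown, with medians of -2.27 and -1.72. They were Nes, Fabp7, Dll1, Zfp521, Pax6 and Hes5. Of these, Nes, Fabp7 and Pax6 are also neural markers of the label check, as is Sox1 of the SOX list. The lists and the marker sums are therefore not separate observations. Nes, an intermediate filament gene of neural stem cells whose enhancer is bound by POU factors, had 84.7 in the Chd4 knockdown, 87.5 in the Mbd3 knockdown and 409 in control. Dll1, a Notch ligand, had 66.2, 84.3 and 277. Fabp7, a lipid-binding protein of radial glia, had 89.0, 139 and 1219 at day 4, and between 28.1 and 30.8 on every day 0 array. Fabp7 was thus above its day 0 level in both knockdown lines. Pou3f2 did not enter the day comparison in either of these lines, so no contrast with it is drawn. Zic2, an epiblast and neural zinc-finger gene, had 294, 260 and 237 and so was not lower.

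Of 14 measured anterior neural genes linked to OTX2, 4 were at least 2-fold lower and 0 higher than control at day 4 in each knockdown, namely Lhx2, Lhx5, Fezf1 and Fezf2. Lhx5, a forebrain LIM factor, had 24.5 in the Chd4 knockdown, 25.8 in the Mbd3 knockdown and 140 in control, while Otx2 itself differed by -0.11 and -0.38. Fezf1, also of the forebrain, had 35.6, 36.1 and 160. Lhx2, an eye-field and cortical factor, had 73.1, 88.9 and 223. The eye and forebrain genes Six3 and Rax, by contrast, had 29.9 and 36.9 in control at day 4, both under 41.4. Of the 14, 7 did not enter. The medians over the 14 were -0.19 and -0.14, or -0.09 and -0.05 with values under 41.4 set to it. Of 9 genes of the midbrain-hindbrain boundary, 1 was at least 2-fold lower than control at day 4 after Chd4 knockdown (Pax2) and, by measured values, 2 after Mbd3 knockdown (Pax2 and Pax8). For Pax8, with 31.5 in the Mbd3 knockdown and 69.1 in control, the bound against 41.4 is only 1.67-fold. Gbx2, whose product opposes OTX2 at that boundary, had 205 in the Chd4 knockdown, 193 in the Mbd3 knockdown and 125 in control at day 4, and 85.3, 100.5 and 189 at day 0.

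**Figure D5:**
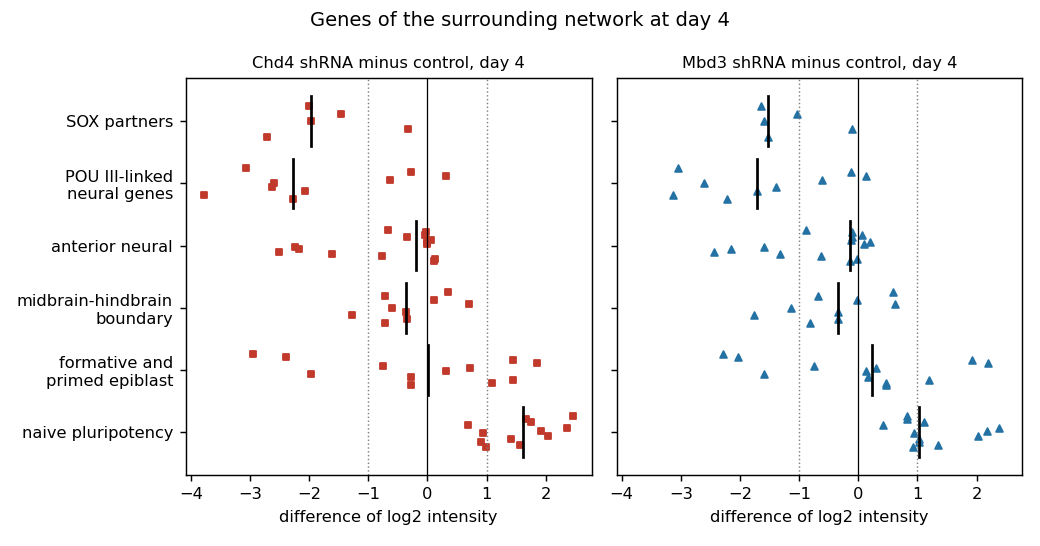
Difference of log2 intensity at day 4 between the Chd4 knockdown (left) or Mbd3 knockdown (right) and control for genes of 6 lists; each point is 1 gene, black bars are list medians and dotted lines mark 2-fold. SOX partners and POU III-linked neural genes lie mostly below -1 with medians of -1.52 to -2.27, and naive pluripotency genes lie above 0 with medians of 1.62 and 1.03.

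The formative and primed epiblast list, to which Pou3f1 and Otx2 are linked by their known roles, was read beside Pou3f1; it shares Sox3 and Zic2 with the lists above. All 12 genes were higher at day 4 than at day 0 in the Chd4 knockdown, 4 of them by 2-fold (median 0.63), and all 12 in the Mbd3 knockdown, 6 by 2-fold (median 1.02). In control 8 of 12 were higher, 4 by 2-fold, and 3 were lower by 2-fold (median 0.65). Dnmt3b, a DNA methyltransferase of the epiblast, had 1618 in the Chd4 knockdown, 1353 in the Mbd3 knockdown and 591 in control at day 4, and 650, 485 and 827 at day 0. Fgf5, the classical epiblast marker, had 68.1, 114 and 82.5 at day 4, and 42.8, 53.3 and 50.5 at day 0. Against control at day 4 the list was split, with 4 genes higher and 3 lower by 2-fold in the Chd4 knockdown (median 0.02), and 3 higher and 3 lower in the Mbd3 knockdown (median 0.24). The lower genes were Cdh2, Fgf15 and Sox3 in both. Cdh2, the N-cadherin of neural epithelium, had 279 in the Chd4 knockdown, 440.4 in the Mbd3 knockdown and 2159 in control at day 4, and Fgf15 had 179, 230.1 and 938. At day 0 the list was lower than control, with 4 of 12 genes past 2-fold in the Chd4 knockdown (median -0.33) and 2 of 12 in the Mbd3 knockdown (median -0.51), as Pou3f1 was by less than 2-fold.

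The 12 naive pluripotency genes were all above control at day 4 in both knockdowns, 8 by 2-fold after Chd4 knockdown and 7 after Mbd3 knockdown. Zfp42 had 1354 in the Chd4 knockdown, 1340 in the Mbd3 knockdown and 330 in control, and Klf4 had 126, 138 and 67.5. At day 0 Zfp42 had 2312, 1745 and 2050 and Klf4 had 425, 466 and 405 in the same lines. None of the 12 genes was higher at day 4 than at day 0 in any line. Lower by 2-fold at day 4 were 8 in the Chd4 knockdown, 6 in the Mbd3 knockdown and 12 in control.

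Within the POU family, 7 of 11 other genes were measured, and 1 of them, Pou2f3, passed 2-fold between a knockdown and control. Pou5f1 (Oct4), the stem cell member, had 152 in the Chd4 knockdown, 141 in the Mbd3 knockdown and 77.6 in control at day 4. Pou2f3, the tuft cell factor, had 138 in the Chd4 knockdown, 51.5 in the Mbd3 knockdown and 33.5 in control at day 4, and 109, 40.2 and 45.7 at day 0. Of 7 measured OTX-related homeobox genes, none differed by 2-fold in any comparison, and 1 or 2 of them entered.

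Genes most like a member were ranked by Pearson's r of log2 intensity over the 6 arrays among 2886 genes, as a description. For Pou3f1 they were Gramd3, Phf21a and Zfp423, with r from 0.973 to 0.976. For Pou3f2 they were Cd99l2, Rab11fip2 and Mmgt1 (0.998 to 0.999), for Pou3f3 Agtr1a, Scube2 and Spon1 (0.999 to 1.00), and for Pou3f4 Ebf3, Snap25 and Agtr1a (0.999 to 1.00). Ebf3, a neuronal transcription factor gene, had 40.6 in the Chd4 knockdown, 49.4 in the Mbd3 knockdown and 217 in control at day 4. For the genes listed with Pou3f2, Pou3f3 and Pou3f4, r over the 5 arrays without the day 4 control was 0.942 to 0.995. These genes had been picked on all 6 arrays, and the members' values on those 5 lie near or under 41.4, so nothing further is read from it. Otx1 and Otx2 spanned less than 2-fold and were not ranked.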

How the data were processed

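Gene expression was measured on 6 Mouse Gene 2.0 ST arrays, 1 per group, from total RNA. The series design text names GeneSpring GX 12.6.1, and RMA appears, with no version, among tools of the submitters' processing notes. The authors deposited linear intensities, here from 17.4 to 7980. For the array's probe sets no genome build was given.

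The values were put on the log2 scale without rescaling. Among the 34351 probe sets, 23521 had a single gene symbol, 1814 had several and 9016 had none. Gene IDs of 23328 were found in RefSeq (GRCm38.p6), from which current symbols were taken. This gave 22180 genes, each represented by its brightest probe set. A gene entered a comparison where the brighter array reached its own median. With 1 array per group no test was run and there is no replicate error, and precision is limited by the number of arrays. The functions were tested on simulated data. Named genes are the 6 members, the genes of the lists, the 3 genes most correlated with each member whose log2 values span at least 1, the targeted genes and the next measured gene on each side. Members and lists were chosen with earlier results of these data known. Python 3.11.15, numpy 2.4.6 and pandas 2.3.3 were used. The 6 alternatives were median-centred and quantile-normalized arrays, 16 subtracted before log2, values under 41.4 set to it, no filter on dim genes, and the mean over a gene's probe sets.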

Additional observations from a re-analysis of the deposited data

How the results depend on the processing

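No paired analysis was possible because each group holds 1 array, so replicate numbers pair nothing. A fit of line plus day over the 6 arrays, which would take unequal day effects of the lines as error, was not run. Each member has 1 probe set, so the mean over probe sets repeats the main values and could move none of them. Leaving out the filter on dim genes changes no difference, only which genes enter. With these included, 6 alternatives were read over 6 members and 9 comparisons. Of 324 log2 differences, 317 stayed on their side of 2-fold and within 1.5-fold of their value, 7 moved and 0 reversed. All 7 came with 16 subtracted before log2: besides those given above, the Mbd3-knockdown difference of Pou3f2 at day 4 was -3.31, and the day differences of Pou3f2 and Pou3f4 in control were 3.79 and 3.64; all but that of Pou3f1 rest on a value under 41.4. In that setting 1 member, Pou3f1, in place of 0 passed 2-fold between the Chd4 knockdown and control at day 0. Counts of all genes past 2-fold moved there too. Against control they were 324 in place of 169 (Chd4, day 0), 207 in place of 91 (Mbd3, day 0) and 1713 in place of 1134 (Mbd3, day 4). Between days they were 643 in place of 383 (Chd4) and 643 in place of 362 (Mbd3), and between the knockdowns 266 in place of 147 at day 4 and 295 in place of 140 at day 0. Whether the deposited values hold such a constant was not tested. Values of Pou3f2, Pou3f3 and Pou3f4 outside the day 4 control array lie near or under the array medians, which limits their folds and their order.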
